A study of Mus musculus with 92 samples.

Results

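A set of 10 genes of the Z-disc and the actin filaments of muscle was followed across the quadriceps transcriptomes of 92 mice. The genes were chosen by name for their known place in the parts of the fibre that bear or sense load: Csrp3, Ankrd1, Ankrd2, Actc1, Acta1, Actn2, Actn3, Xirp1, Xirp2 and Flnc. These genes and the gene lists used below were chosen with earlier results of these data known. All 10 were measured, out of 13441 genes in all. The animals were DOz mice, an outbred stock in which each mouse carries its own mix of inherited alleles, fed standard chow for life and about 18 to 20 weeks old. There was 1 group, every column of the data was a different mouse, and no treatment or genotype was compared; the animals' alleles were not analysed here. RNA had been copied into polyadenylated-RNA libraries, and the level of a gene is given on a log2 scale on which a step of 1 is a 2-fold change. The linear values of a library summed to between 898071 and 1140761, close to the 1000000 of counts per 1000000 (CPM), so the levels are called log2 CPM here. Read depth is unknown. Mice are called by their sample titles, such as Geniad56. Ordered by the number in the title, the mice form 5 blocks of 33, 14, 21, 11 and 13 with gaps of more than 30 between blocks. Nothing in the labels explains these numbers, so the blocks were treated as a possible batch and are called title-number blocks. The muscle identity was plain from its markers: the 8 fast glycolytic fibre genes summed to between 92340 and 182483 CPM, and the 9 slow fibre genes to between 61 and 1357.

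The Z-disc is the plate at which actin filaments of neighbouring sarcomeres are anchored and cross-linked by alpha-actinin. Acta1 is the actin of adult skeletal muscle and Actc1 the actin of heart and of developing skeletal muscle. Actn2 and Actn3 are the sarcomeric alpha-actinins, and Actn3 is restricted to fast glycolytic fibres. Csrp3, also called muscle LIM protein, is a small LIM-domain protein of the Z-disc. Ankrd1 and Ankrd2 are ankyrin-repeat proteins that bind titin and can enter the nucleus, and both are known to rise when muscle is stretched or overloaded. Flnc is the muscle filamin, an actin cross-linker that is unfolded by tension and cleared with the help of Bag3 and small heat shock proteins. Xirp1 and Xirp2 are Xin-repeat proteins that bind actin and filamin at sites of damage and at attachment sites.

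The upstream sequences of the actin pair are shown because these 2 genes code for nearly interchangeable proteins and differed more in level and in spread than the other 3 pairs of related members, and those of Csrp3 and Ankrd2 because they were the closest pair across animals. The letters run 5′ to 3′ towards the transcription start and are from RefSeq (GRCm38.p6), with bases that GENCODE M21 counts as exon left out. Capitals mark a CArG box (the site of serum response factor), an MCAT element (CATTCC, the site of TEAD factors), a MEF2 site, or an E-box (CANNTG, the site of myogenic factors), each searched on both strands. The windows are chr8:123894776-123895025 for Acta1, chr2:114052888-114053125 for Actc1, which lies in an intron of a longer Actc1 transcript, and chr7:48848052-48848301 for Csrp3, all on the minus strand, and chr19:42035777-42035999 for Ankrd2 on the plus strand.
Acta1: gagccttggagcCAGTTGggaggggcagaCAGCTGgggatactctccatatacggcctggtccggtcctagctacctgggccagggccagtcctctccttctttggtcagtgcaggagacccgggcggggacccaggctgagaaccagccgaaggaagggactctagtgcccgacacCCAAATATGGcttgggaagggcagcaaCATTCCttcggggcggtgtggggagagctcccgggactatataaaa
Actc1: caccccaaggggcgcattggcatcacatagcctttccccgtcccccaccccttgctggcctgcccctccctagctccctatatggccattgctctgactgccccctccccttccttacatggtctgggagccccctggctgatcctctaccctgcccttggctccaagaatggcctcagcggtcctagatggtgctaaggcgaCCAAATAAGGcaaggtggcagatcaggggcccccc
Csrp3: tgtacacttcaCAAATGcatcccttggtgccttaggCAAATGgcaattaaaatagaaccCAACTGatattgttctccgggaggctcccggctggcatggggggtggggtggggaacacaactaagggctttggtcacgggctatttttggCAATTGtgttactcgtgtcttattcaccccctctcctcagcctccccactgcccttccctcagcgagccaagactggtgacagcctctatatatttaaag
Ankrd2: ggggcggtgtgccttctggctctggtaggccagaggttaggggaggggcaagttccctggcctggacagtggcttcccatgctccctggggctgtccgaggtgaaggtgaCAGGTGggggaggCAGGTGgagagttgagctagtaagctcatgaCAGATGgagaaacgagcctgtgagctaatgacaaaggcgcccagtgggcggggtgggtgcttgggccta
Both actin windows held 1 CArG box, CCAAATATGG starting 73 bases before the Acta1 start and CCAAATAAGG starting 47 bases before the Actc1 start. Of 32817 RefSeq windows of 250 bases before a start, 1.47% held a CArG box. Acta1 also held an MCAT element 46 bases before the start, as did 12.6% of all windows. Ankrd1 held 2 MCAT elements in its window and Flnc 1, which lay 104 bases before the start, and the Xirp2 window held a MEF2 site 74 bases before the start, a motif present in 2.92% of windows. The Csrp3 window shown held 4 E-boxes and the Ankrd2 window 3, a motif found in 66.2% of all windows, and neither held letters of the other 3 motifs. These matches describe the letters only. Windows were matched for 8 of the 10 genes, the others being Xirp1 and Actn3.

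The contractile actin Acta1 and the Xin-repeat gene Xirp2 were abundant and varied little between animals, whereas the LIM and ankyrin-repeat genes and the cardiac actin were at lower levels and differed widely. Divided by merged exon length, the order of mean levels on the log2 per-kilobase scale was Acta1 (13.98), Actn3 (11.05), Xirp2 (8.10), Actn2 (7.48), Flnc (6.10), Actc1 (5.30), Xirp1 (5.13), Ankrd2 (4.69), Csrp3 (2.92) and Ankrd1 (2.37). Within animals, Acta1 was above Actn3, Actn3 above Xirp2 and Actn2 above Flnc in 92 of 92 mice, and Ankrd2 above Csrp3 in 91. Xirp2 was above Actn2 in 83 mice. The order of the other neighbours changed from mouse to mouse, and the SD of each difference was larger than its mean. Flnc minus Actc1 was 0.80 ± 1.41 (mean ± SD, n = 92), with Flnc above in 62 mice. Actc1 minus Xirp1 was 0.17 ± 1.52, with Actc1 above in 47. Xirp1 minus Ankrd2 was 0.44 ± 0.89, with Xirp1 above in 62. Csrp3 minus Ankrd1 was 0.55 ± 1.37, with Csrp3 above in 58. These mean differences were not tested. With the length of the longest transcript in place of merged exons the order was kept, but the mean difference was 0.17 for Csrp3 minus Ankrd1, 0.31 for Actc1 minus Xirp1 and 0.29 for Xirp2 minus Actn2. All other levels below are log2 CPM and not divided by length, and gene positions are on GRCm38.

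**Figure D1:**
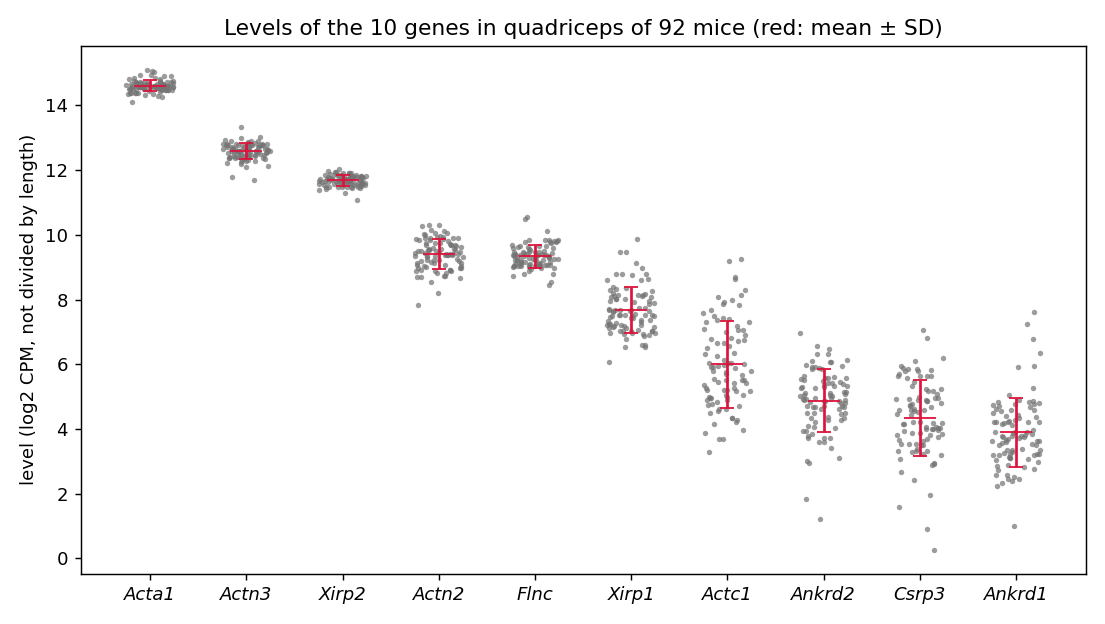
Level of each of the 10 genes in log2 CPM (vertical axis), 1 point per mouse, with the mean ± SD over 92 mice in red. Acta1 and Xirp2 lie in bands less than 1 log2 unit high, while Csrp3, Ankrd1, Ankrd2 and Actc1 spread over more than 5 units.

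Acta1 (ENSMUSG00000031972, chr8:123891769-123894751, minus strand), the bulk of the thin filament, ranged from 14.12 through a median of 14.59 to 15.09. Every animal was within 2-fold of the median, and the highest stood 1.97-fold above the lowest. Its SD was 0.17, and the trend of SD on mean over all genes gave 0.24 at that level, and 15.6% of all genes had a smaller ratio of SD to trend. Actc1 (ENSMUSG00000068614, chr2:114047282-114053548, minus strand), its cardiac counterpart, ranged from 3.29 through 5.84 to 9.25. Of the 92 mice, 25 were more than 2-fold above the median and 18 more than 2-fold below it. The highest, Geniad11 and Geniad10, stood at 9.25 and 9.18. Its SD of 1.34 was 6.14 times the trend value, and 99.8% of all genes had a smaller ratio.

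Per length, Acta1 exceeded Actc1 in all 92 animals, but by a margin that varied. The ratio was 37.1-fold in Geniad11 and 2730-fold in Geniad97, and the difference had a median of 8.79 and a mean of 8.68 ± 1.34 (SD, n = 92) on the log2 scale. The pair was not called as related across animals (r = 0.058, limma adjusted p = 0.862). Of the distinct 31-base words in their annotated transcripts, 4.11% of those of Acta1 and 0.756% of those of Actc1 also occur in transcripts of other genes.

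Actn3 (ENSMUSG00000006457, chr19:4861216-4877909, minus strand) ranged from 11.69 through 12.60 to 13.34. The lowest value was that of Geniad260 and the highest that of Geniad56. Actn2 (ENSMUSG00000052374, chr13:12269426-12340760, minus strand), the actinin of all sarcomeres, ranged from 7.84 through 9.41 to 10.30. Here Geniad366 and Geniad56 were lowest, at 7.84 and 8.20, and no animal was more than 2-fold above the median. Actn3 per length exceeded Actn2 in all 92 animals, by 3.52-fold in Geniad260, 12-fold at the median and 45.9-fold in Geniad56. The SD of Actn2, 0.47, was 2.19 times the trend, against 1.09 times for Actn3 with an SD of 0.25. A smaller ratio was found in 95.3% of all genes for Actn2 and in 61.3% for Actn3.

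Csrp3 (ENSMUSG00000030470, chr7:48830398-48848033, minus strand) ranged from 0.27 through 4.32 to 7.06, which is 1.21 to 133 CPM and 110-fold from lowest to highest. Geniad56 and Geniad366 were lowest at 0.27 and 0.92, followed by Geniad25 at 1.59, and Geniad453 and Geniad269 were highest at 7.06 and 6.80. Ankrd2 (ENSMUSG00000025172, chr19:42036000-42045110, plus strand) ranged from 1.21 through 4.95 to 6.95. The same animals stood at its ends: Geniad56 and Geniad366 at 1.21 and 1.82, and Geniad453 and Geniad269 at 6.95 and 6.56. Ankrd1 (ENSMUSG00000024803, chr19:36111961-36120099, minus strand) ranged from 1.0 through 3.77 to 7.61, with other animals at its ends: Geniad87 was lowest, and Geniad55 and Geniad260 were highest at 7.61 and 7.24. The SDs were 1.18 for Csrp3, 0.97 for Ankrd2 and 1.07 for Ankrd1, which is 4.71, 4.1 and 4.0 times the trend.

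Xirp1 (ENSMUSG00000079243, chr9:120013755-120023598, minus strand) ranged from 6.06 through 7.53 to 9.88, with 12 animals more than 2-fold above the median and 2 more than 2-fold below. Geniad338 and Geniad187 were highest, at 9.88 and 9.46. Xirp2 (ENSMUSG00000027022, chr2:67446002-67526614, plus strand) ranged only from 11.08 through 11.69 to 12.03. The Xin-repeat pair thus held a widely varying gene, with an SD of 0.71 and 3.34 times the trend, and a steady one, with an SD of 0.16 and 0.719 times the trend. Exons of Xirp2 overlap those of Gm13601 on the other strand, and 1.17% of the distinct 31-base words of Xirp2 are shared with it; reads from that shared stretch cannot be told apart without strand. Flnc (ENSMUSG00000068699, chr6:29433256-29461883, plus strand) ranged from 8.45 through 9.32 to 10.56. Geniad187 and Geniad452 were highest at 10.56 and 10.50, the only mice more than 2-fold above the median, and Geniad56 was lowest.

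None of the 10 genes was called as different between the title-number blocks (limma F test, adjusted over all genes). The adjusted p-values ran from 0.546 for Ankrd2 to 0.944 for Acta1, and 0.0149% of all genes were called. An unadjusted p under 0.05 was found for 2 members and for 8.33% of all genes.

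Csrp3 and Ankrd2 rose and fell together from mouse to mouse, and each did so with Actn2, Xirp1 and Flnc. Acta1 and Actn3 formed a pair of their own, and Actc1 and Xirp2 were called with no other member. The level of every gene was fitted on the standardised level of each member in turn (limma, Benjamini-Hochberg adjustment over the 13440 other genes), and a pair was called where the adjusted p was under 0.05 in both directions. Of 45 pairs, 10 were called, and all 10 were positive. In the fit on Csrp3, 4 of the 9 other members rose, where 2.21% of all genes rose. The count was 4 of 9 for Ankrd2 (background 2.23%), 5 for Actn2 (5.08%), 3 for Xirp1 (2.0%), 3 for Flnc (2.64%), 1 for Ankrd1 (2.16%), 1 for Acta1 (7.29%) and 1 for Actn3 (7.97%). No member was called with Actc1 (0.707%) or with Xirp2 (3.88%). The only falling member was Csrp3 in the fit on Actn3, where 7.78% of all genes fell, and that pair was not called in the other direction (adjusted p = 0.107). No member fell in the other fits, in which the share of all genes that fell was 1.7% for Csrp3, 2.25% for Ankrd1, 1.21% for Ankrd2, 0.759% for Actc1, 7.27% for Acta1, 5.33% for Actn2, 1.15% for Xirp1, 3.36% for Xirp2 and 1.49% for Flnc.

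**Figure D2:**
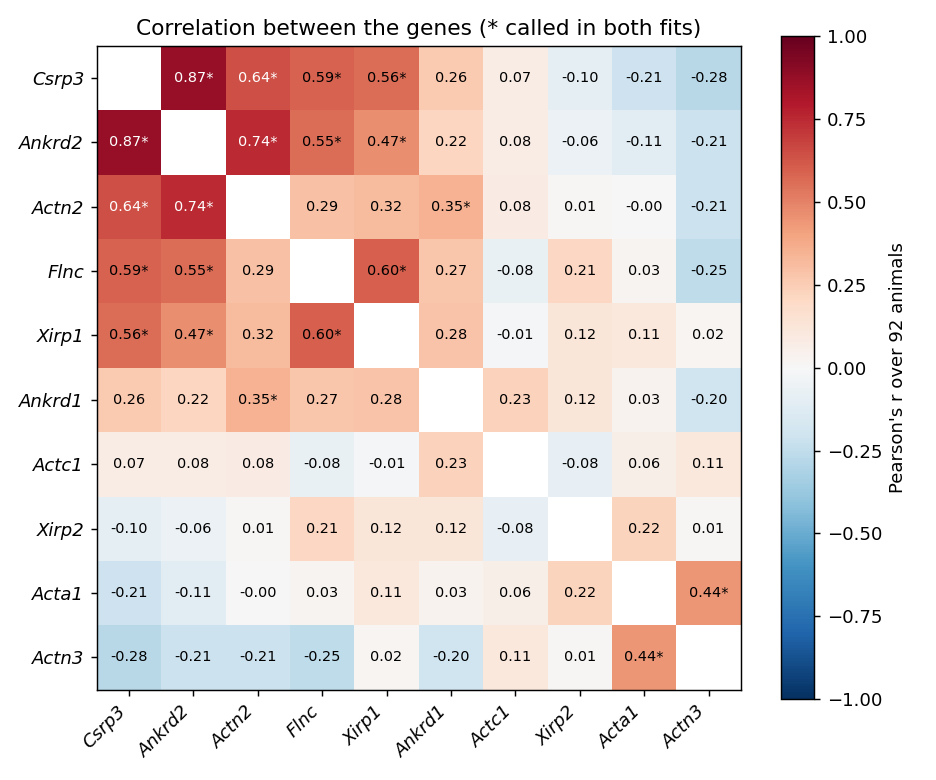
Pearson's r between each pair of the 10 genes over 92 mice, with the value in each cell and a star where both fits called the pair. Csrp3, Ankrd2 and Actn2 form the reddest block, Flnc and Xirp1 join it, and Acta1 with Actn3 stand apart.

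Csrp3 and Ankrd2 were the closest pair. Ankrd2 rose by 0.85 ± 0.05 (SE) log2 units per SD of Csrp3, with r = 0.873 and rho = 0.808, each with a two-sided permutation p of 1e-05, the smallest that 100000 resamples can give (larger limma adjusted p of both fits 6.72e-27). Without Geniad56 and Geniad366, the farthest from the median of Csrp3, r was 0.832, and within the 5 blocks it lay between 0.682 and 0.967. Ankrd2 and Actn2 had r = 0.744 and rho = 0.697 (both permutation p = 1e-05, adjusted p = 1.23e-14), r = 0.677 without the same animals and 0.612 to 0.853 within blocks. For Csrp3 and Actn2, r was 0.641 and rho 0.549 (both permutation p = 1e-05, adjusted p = 3.64e-09), with r = 0.551 without these animals and 0.465 to 0.818 within blocks. The LIM protein, the ankyrin-repeat protein and the alpha-actinin of all sarcomeres thus tended to be high in the same mice.

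Xirp1 and Flnc, whose proteins bind each other, were the next pair. Flnc rose by 0.21 ± 0.03 (SE) per SD of Xirp1, with r = 0.598 and rho = 0.533 (both permutation p = 1e-05, adjusted p = 3.47e-07), r = 0.518 without Geniad338 and Geniad187 and 0.324 to 0.855 within blocks. Flnc was also related to Csrp3 (r = 0.587, rho = 0.562, adjusted p = 5.22e-07, within blocks 0.430 to 0.748) and to Ankrd2 (r = 0.555, rho = 0.537, adjusted p = 4.02e-06, within blocks 0.455 to 0.678). Xirp1 was related to Csrp3 (r = 0.557, rho = 0.532, adjusted p = 2.16e-06, within blocks 0.399 to 0.772) and to Ankrd2 (r = 0.468, rho = 0.436, adjusted p = 0.000314, within blocks 0.278 to 0.708). The permutation p of these 4 pairs was 1e-05 for r, and for rho 1e-05 except 4e-05 for Ankrd2 with Xirp1. Without Geniad56 and Geniad366, r was 0.543, 0.504, 0.556 and 0.458 in the order given. Actn2 with Xirp1 (r = 0.315) and Actn2 with Flnc (r = 0.294) were called in 1 direction of fit and missed in the other (adjusted p = 0.054 and 0.0677). The 3 pairs among Csrp3, Ankrd2 and Actn2 and the 5 called pairs that include Xirp1 or Flnc were called in all 13 settings tried.

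**Figure D3:**
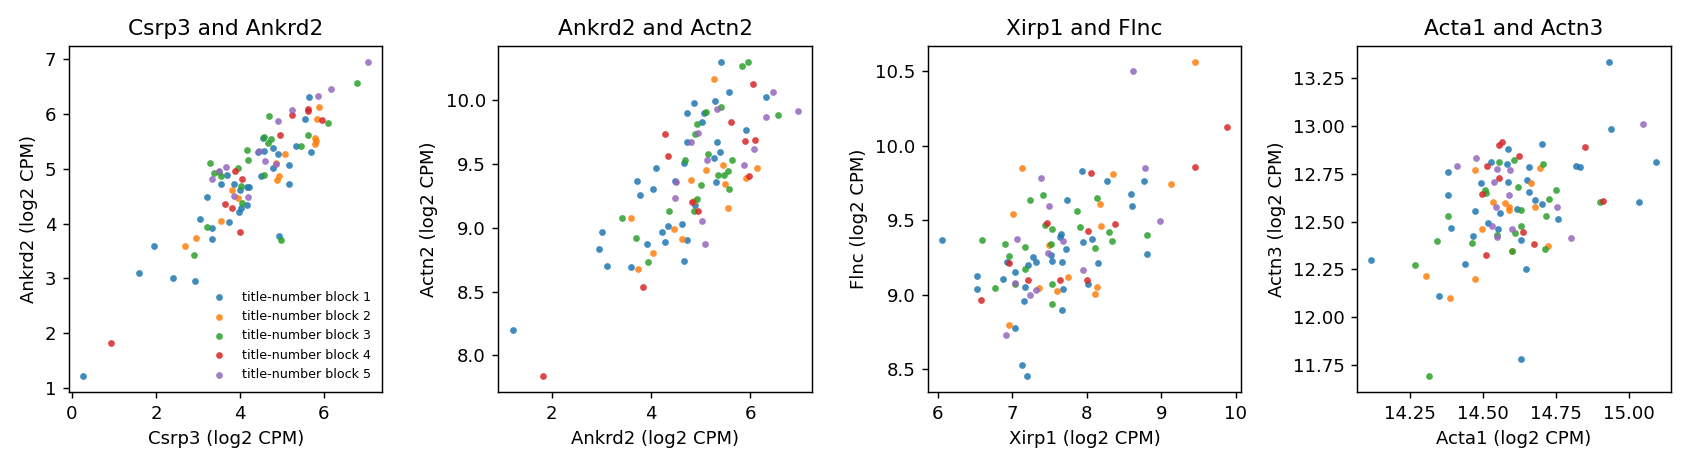
A choice of 4 of the 10 called pairs, with the log2 CPM level of one gene on each axis and 1 point per mouse, coloured by title-number block. Geniad56 and Geniad366 form the low corner for Csrp3 and Ankrd2, animals of all 5 blocks lie in 1 band there, and the cloud for Acta1 and Actn3 is the loosest of the 4.

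Acta1 and Actn3 were related with r = 0.440 (permutation p = 4e-05) and rho = 0.319 (permutation p = 0.00218), and Actn3 rose by 0.11 ± 0.02 (SE) per SD of Acta1 (adjusted p = 0.00118). Without Geniad40 and Geniad32 r was 0.420, and within blocks it ran from 0.028 to 0.569. The call ended when the slow and fast fibre scores were covariates, where the slope was -0.01 (adjusted p = 0.913), and with 3 principal components as covariates (slope 0.05, adjusted p = 0.52). Ankrd1 and Actn2 had r = 0.351 (permutation p = 0.00064) and rho = 0.371 (permutation p = 0.00026, adjusted p of the fit 0.0226), with one block at -0.158 and the highest at 0.753. That call ended without Geniad55 (adjusted p = 0.0509), without Geniad260 (0.112) and without both (0.292), and in 7 of 13 settings in all. The slope of Actn2 per SD of Ankrd1 was 0.16 in the full set, 0.17 without Geniad55, 0.14 without Geniad260 and 0.14 without both, and 0.09 with 3 principal components as covariates (adjusted p = 0.638). Ankrd1 and Ankrd2, although of 1 family, were not called (r = 0.217, adjusted p = 0.263). Of the 35 pairs not called, 14 had an unadjusted permutation p under 0.05, with r between -0.277 and 0.315 over the 35. In the fits on the members 15.2% to 29.5% of all genes had an unadjusted p under 0.05.

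Csrp3, Ankrd2 and Actn2 were higher in mice with more slow fibre RNA, while Acta1 and Actn3 were higher in mice with more fast fibre RNA. Xirp1 and Flnc were called with neither fibre score. A list score is the mean of the standardised genes of a list, and none of the 11 lists holds a member. In all, 17 of 110 member-score relations were called (limma, adjusted over all genes outside the list), 9 positive and 8 negative. No member was called with the tendon score (5.72% of all genes rose and 2.46% fell), the smooth muscle and pericyte score (5.63% and 1.97%), the endothelial score (5.66% and 2.91%) or the adipocyte score (3.67% and 0.625%). In bulk muscle, fewer cells of a type and less RNA per cell cannot be told apart.

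**Figure D4:**
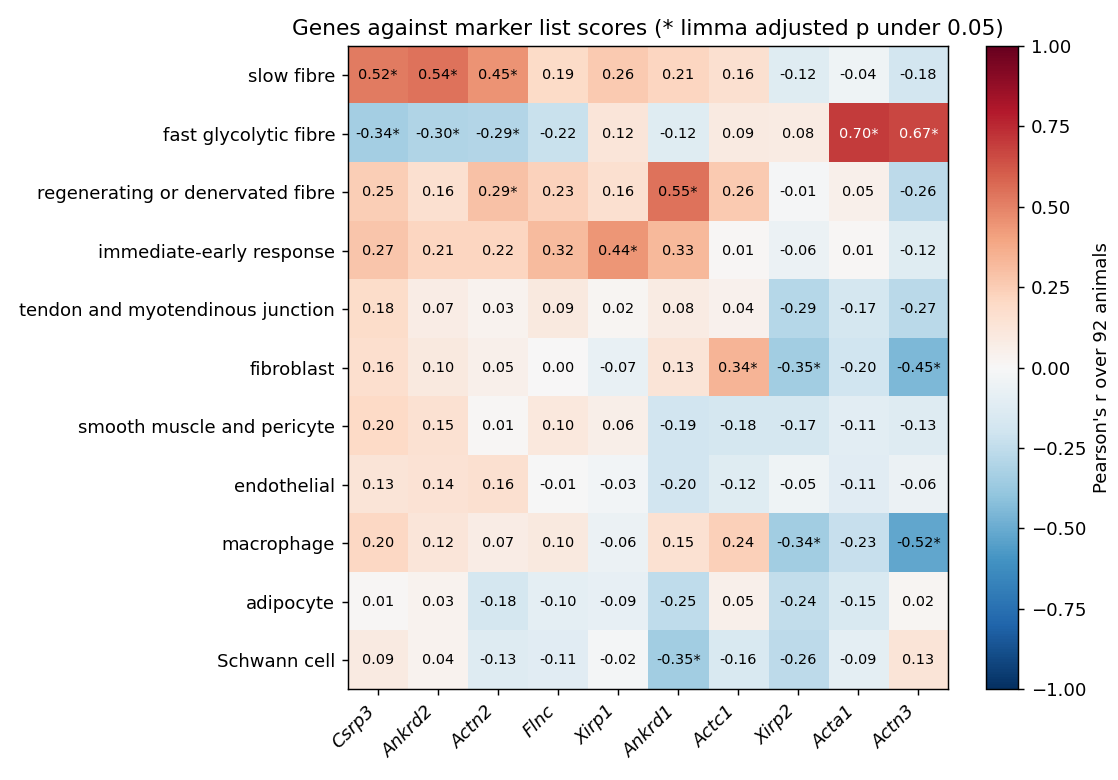
Pearson's r of each gene (columns) with the score of each of 11 marker lists (rows) over 92 mice, starred where the limma adjusted p was under 0.05. The slow fibre row is red for Csrp3, Ankrd2 and Actn2, and the fast fibre row is red for Acta1 and Actn3.

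Against the slow fibre score, with which 0.417% of all genes rose and 0.127% fell, 3 members rose and none fell. Ankrd2 had r = 0.541 (rho = 0.511, both permutation p = 1e-05, adjusted p = 1.23e-05), and 0.193 to 0.785 within blocks. Csrp3 had r = 0.517 (permutation p = 1e-05), rho = 0.472 (permutation p = 2e-05, adjusted p = 5.55e-05) and 0.230 to 0.727 within blocks. Actn2 had r = 0.452 (permutation p = 1e-05), rho = 0.448 (permutation p = 2e-05, adjusted p = 0.00218) and 0.257 to 0.553 within blocks. Without Geniad269 and Geniad178, the farthest from the median score, r was 0.519, 0.471 and 0.460. Of the 9 slow fibre genes, 8 rose with Csrp3 (2.21% of all genes) and 8 with Ankrd2 (2.23%). For both these were Atp2a2, Myh7, Myh7b, Myl2, Myl3, Tnnc1, Tnni1 and Tnnt1. With Actn2 6 rose (5.08%). The Actn2 relation was not called without Geniad56, Geniad260 and Geniad366 together (adjusted p = 0.062). With the slow and fast scores as covariates, Csrp3 and Ankrd2 were still called as a pair (adjusted p = 1.43e-18), as were Ankrd2 with Actn2 (1.27e-08) and Xirp1 with Flnc (6.41e-08).

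Against the fast glycolytic fibre score, with which 11% of all genes rose and 10.6% fell, 2 members rose and 3 fell. Acta1 had r = 0.697 (rho = 0.585, both permutation p = 1e-05, adjusted p = 2.69e-09), r = 0.659 without Geniad260 and Geniad448 and 0.365 to 0.789 within blocks. Actn3 had r = 0.671 (rho = 0.578, both permutation p = 1e-05, adjusted p = 5.64e-10), r = 0.605 without these animals and 0.343 to 0.826 within blocks. The list's genes rose with Actn3 in 8 of 8 cases (7.97% of all genes) and with Acta1 in 7 of 8 (7.29%), Myh4 being the exception. Csrp3 (r = -0.339, permutation p = 0.001, rho = -0.276, permutation p = 0.00743, adjusted p = 0.0071), Ankrd2 (r = -0.300, permutation p = 0.00409, rho = -0.240, permutation p = 0.0209, adjusted p = 0.0197) and Actn2 (r = -0.293, permutation p = 0.00471, rho = -0.199, permutation p = 0.0574, adjusted p = 0.0237) fell. Of the 8 list genes, only Myh4 and Pvalb fell with Csrp3, Ankrd2 and Actn2, where 1.7%, 1.21% and 5.33% of all genes fell. The median r of the list was -0.25, -0.208 and -0.168. Against the score, r of the 3 members without Geniad260 and Geniad448 was -0.327, -0.312 and -0.299, and the sign was negative in every block. None of these 3 falls was called without Geniad56, Geniad260 and Geniad366 together (adjusted p from 0.158 to 0.323), and Geniad56 alone ended the call for Ankrd2 (0.115) and Actn2 (0.0848); Geniad260 alone also did for Actn2 (0.0716). With 3 principal components as covariates Csrp3 (0.239) and Ankrd2 (0.175) were not called, and by rank Ankrd2 was not (0.0736).

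Ankrd1 rose with the list of regenerating or denervated fibres, which holds genes of embryonic myosins, myogenic factors and acetylcholine receptor subunits and with which 6.68% of all genes rose and 7.21% fell. The relation had r = 0.546 (permutation p = 1e-05), rho = 0.303 (permutation p = 0.00352) and an adjusted p of 3.01e-06, with 0.386 to 0.671 within blocks. Geniad260 and Geniad55 held both the highest scores and the highest Ankrd1. These 2 mice also stood apart on other scores. Geniad55 was at -3.70 SD for smooth muscle and pericyte, -3.61 for endothelial and -3.68 for Schwann cell. Geniad260 was at 3.26 SD for fibroblast, 3.33 for macrophage and -3.17 for fast glycolytic fibre. Without the 2 mice r of Ankrd1 with the regenerating score was 0.336 and the limma adjusted p 0.121. The call also ended by rank (adjusted p = 0.0677) and with 3 principal components as covariates (0.239). Of 12 genes listed 10 were measured, and 4 rose with Ankrd1, where 2.16% of all genes rose. These were Chrnd, a receptor subunit, and Myog, a myogenic factor. The others were Ncam1, an adhesion molecule that spreads along denervated fibres, and Runx1, a factor induced by denervation. The summed level of the list ran from 93.0 to 1097 CPM, and its part in the Ankrd1 result was not tested. Actn2 also rose with this score (r = 0.292, permutation p = 0.00541, rho = 0.324, permutation p = 0.00169, adjusted p = 0.035). That call ended without Geniad55 (adjusted p = 0.0569), without Geniad260 (0.193) and without both (0.406, r = 0.224).

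Xirp1 rose with the immediate-early list (r = 0.440, permutation p = 1e-05; rho = 0.372, permutation p = 0.0004; adjusted p = 0.0022), with which 1.13% of all genes rose and 0.521% fell. Without Geniad339 and Geniad433 r was 0.380, and within blocks it ran from 0.291 to 0.739. Of the 11 genes measured, 4 rose with Xirp1, where 2.0% of all genes rose. These were Atf3, Btg2, Nr4a1 and Nr4a3, transcription regulators that respond to stimulation within minutes to hours. Fos, Fosb, Egr1, Junb, Ier2, Ier3 and Dusp1 were not called with Xirp1. The median r of the list with Xirp1 was 0.215, while Atf3 alone had r = 0.881. The list summed to between 107 and 668 CPM.

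Actn3 and Xirp2 were lower in mice with higher macrophage and fibroblast scores, and Actc1 was higher in mice with higher fibroblast scores. Actn3 fell with the macrophage score (r = -0.517, permutation p = 1e-05, rho = -0.379, permutation p = 0.00028, adjusted p = 4.49e-06) and with the fibroblast score (r = -0.450, permutation p = 3e-05, rho = -0.315, permutation p = 0.00246, adjusted p = 0.00013). With the macrophage score 11.5% of all genes rose and 9.91% fell, and with the fibroblast score 11.7% rose and 9.5% fell. Each had 1 block of the opposite sign, at 0.125 and 0.216, and r was -0.431 and -0.350 without Geniad260 and Geniad364. All 8 macrophage genes and 7 of 8 fibroblast genes fell with Actn3, where 7.78% of all genes fell. Such counts use the same genes as the scores and are not separate results. Xirp2 fell with the fibroblast score (r = -0.351, permutation p = 0.00075, rho = -0.314, permutation p = 0.00214, adjusted p = 0.00656) and the macrophage score (r = -0.345, permutation p = 0.00077, rho = -0.321, permutation p = 0.00195, adjusted p = 0.00775), with a negative r in every block. Of the list genes, 3 of 8 fibroblast and 4 of 8 macrophage genes fell with Xirp2, where 3.36% of all genes fell. The macrophage relation of Xirp2 was not called without Geniad56, Geniad260 and Geniad366 (adjusted p = 0.0506). Actc1 rose with the fibroblast score (r = 0.336, permutation p = 0.00111, rho = 0.280, permutation p = 0.00678, adjusted p = 0.00671), with 1 block at -0.358. Of the fibroblast genes, 4 of 8 rose with Actc1, where 0.707% of all genes rose. The call of Actc1 with the score ended without Geniad260 and Geniad364 (adjusted p = 0.0906) and without Geniad56, Geniad260 and Geniad366 (0.0666). With 3 principal components as covariates none of these 5 relations of Actn3, Xirp2 and Actc1 was called (adjusted p from 0.587 to 0.999). Ankrd1 fell with the Schwann cell score (r = -0.349, permutation p = 0.00069; rho = -0.168, permutation p = 0.11; adjusted p = 0.0195), with which 3.15% of all genes rose and 1.38% fell, and the call ended without Geniad55 (adjusted p = 0.175) and without Geniad260 (0.058). Without Geniad55 and Geniad87 r was -0.154 (adjusted p = 0.422), and the call also ended by rank (0.158) and with 3 principal components as covariates (0.556). The fibroblast list summed to 462 to 2323 CPM and the macrophage list to 28.3 to 333, and their part in these results was not tested.

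Of 108 genes listed in 6 groups for the structures and the transcriptional control of these members, 107 were measured. With the 10 members this made 1070 relations, of which 135 were called as positive and 34 as negative, over 70 different genes. That is 12.6% rising and 3.18% falling, where 3.62% and 3.23% of all genes rose and fell over the same 10 fits. The share of all genes called with any member was not counted, so the 70 genes have no background beside them. Members that vary together count the same gene more than once, as with Hspb7 for Csrp3, Ankrd2 and Actn2. The permutation p of r was 1e-05 for every gene of these lists named by the rule with an r above 0.43 in size, and that of rho 1e-05 except for Tmod4 (3e-05), Lims1 (0.0001) and Vim (0.0226).

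Of the 11 chaperones and partners that tend filamin under load, 6 rose with Csrp3 (2.21% of all genes), 5 with Ankrd2 (2.23%), 4 with Xirp1 (2.0%), 4 with Flnc (2.64%), 4 with Actn2 (5.08%) and 3 with Ankrd1 (2.16%), and none fell with any of these. With Acta1 3 rose, and with Actn3 3 rose and 1 fell, beside 7.29% rising for Acta1 and 7.97% rising and 7.78% falling for Actn3. The median r of the list was 0.327 with Csrp3, where all genes had -0.0047, and 0.264 with Xirp1, where all genes had -0.00929. Hspb7, a small heat shock protein of muscle that binds filamin, was the closest gene outside the 10 members to Csrp3 (r = 0.835, rho = 0.798, 0.801 to 0.950 within blocks, adjusted p = 3.23e-22), to Ankrd2 (r = 0.811, rho = 0.786) and to Actn2 (r = 0.769, rho = 0.727). Bag3, the co-chaperone of filamin clearance, followed Xirp1 (r = 0.758, rho = 0.709, 0.689 to 0.852 within blocks, adjusted p = 5.83e-15), as did Hspb1 (r = 0.732, rho = 0.724, adjusted p = 9.52e-14). Hspb6 followed Actn2 (r = 0.721, rho = 0.731, adjusted p = 4.01e-13). The list had no gene called with Actc1 or Xirp2.

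Among the 27 genes of titin and the Z-disc scaffold, 7 rose and none fell with Actn2 (5.08% and 5.33% of all genes), 6 rose and 1 fell with Ankrd2 (2.23% and 1.21%), and 4 rose and 2 fell with Csrp3 (2.21% and 1.7%). With Acta1 6 rose and 1 fell (7.29% and 7.27%), with Flnc 5 rose and 1 fell (2.64% and 1.49%), with Xirp1 3 rose (2.0%), with Xirp2 2 rose (3.88%), with Ankrd1 1 rose (2.16%) and with Actc1 1 fell (0.759%). Fhl1, a LIM-domain protein, followed Csrp3 (r = 0.799, rho = 0.761, adjusted p = 1.11e-18). Myoz2, the calsarcin of slow fibres and heart, followed Ankrd2 (r = 0.795, rho = 0.715, adjusted p = 1.96e-18), and so did Pdlim1 (r = 0.767, rho = 0.762, adjusted p = 2.96e-16), an actinin-binding PDZ and LIM protein. With Actn3 8 of the 27 rose and 3 fell, beside backgrounds of 7.97% and 7.78%. Pdlim7 was the closest of these to Actn3 (r = 0.684, rho = 0.608, adjusted p = 1.28e-10). The 2 genes of the list that fell with Csrp3 were Myoz1 (r = -0.342, rho = -0.279, adjusted p = 0.033; r = -0.241 without Geniad56 and Geniad366) and Myoz3 (r = -0.327, rho = -0.314, adjusted p = 0.0399), the calsarcins of fast fibres.

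In the thin filament list of 16 genes, 4 rose and 3 fell with Csrp3 (2.21% and 1.7% of all genes), 5 rose with Xirp2 (3.88%), 4 rose with Flnc (2.64%) and 3 rose with Xirp1 (2.0%). With Actn3 4 rose and 3 fell (7.97% and 7.78%), with Actn2 3 rose and 2 fell (5.08% and 5.33%), and with Acta1 3 rose and 1 fell (7.29% and 7.27%). With Ankrd2 (2.23%) and Ankrd1 (2.16%) 2 rose each, and none was called with Actc1. Lmod2, a leiomodin that lengthens actin filaments, followed Ankrd2 (r = 0.651, rho = 0.664, adjusted p = 7.63e-10), and Lmod3 followed Actn2 (r = 0.523, rho = 0.511, adjusted p = 9.99e-06). Tmod4, which caps the pointed end of the filament, followed Acta1 (r = 0.584, rho = 0.463, adjusted p = 1.86e-06), a call that ended with the fibre scores as covariates (adjusted p = 0.271). Unc45b, a myosin chaperone, followed Xirp1 (r = 0.468, rho = 0.457, adjusted p = 0.000346). Of the 5 that rose with Xirp2, Neb, the ruler of the thin filament, had r = 0.361 (permutation p = 0.00048; rho = 0.225, permutation p = 0.0303; adjusted p = 0.0192), and r = 0.275 without Geniad448 and Geniad260.

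Of the 20 costamere and intermediate filament genes, at most 2 rose and at most 2 fell with any member. With Acta1 2 rose and 2 fell, where 7.29% and 7.27% of all genes did, and with Actn3 1 rose and 2 fell, where 7.97% and 7.78% did, so these counts are near the background. Synm, an intermediate filament protein, fell with Actn2 (r = -0.555, rho = -0.594, -0.821 to -0.366 within blocks, adjusted p = 1.32e-06). Sgca, a sarcoglycan, rose with Acta1 (r = 0.542, rho = 0.474, adjusted p = 1.43e-05), and Lims1 (r = -0.492, rho = -0.408, adjusted p = 4.92e-05) and Vim (r = -0.441, rho = -0.238, adjusted p = 0.000384) fell with Actn3. The calls of Sgca, Lims1 and Vim ended with the fibre scores as covariates (adjusted p from 0.0764 to 0.192). The 8 nonmuscle or smooth muscle paralogs of actin, actinin and filamin had 3 rising with Xirp1 (2.0% of all genes), 2 rising with Csrp3 (2.21%) and 1 falling with Ankrd1 (2.25%). Flna (r = 0.336, permutation p = 0.00109; rho = 0.413, permutation p = 4e-05; adjusted p = 0.0336) and Acta2 (r = 0.328, permutation p = 0.00143; rho = 0.438, permutation p = 3e-05; adjusted p = 0.0398) followed Xirp1. The Flna call ended without Geniad338 and Geniad187 (adjusted p = 0.0655) and the Acta2 call with the block (0.0623) or the fibre scores (0.0581) as covariates. Actn4 fell with Ankrd1 (r = -0.337, permutation p = 0.00121; rho = -0.263, permutation p = 0.0115; adjusted p = 0.0303), a call that ended without Geniad55 (0.302) or Geniad260 (0.0992).

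The list of transcriptional control had 25 genes. It covered SRF, its MRTF coactivators and the YAP and TEAD factors, and also Nfatc1, Rcan1, Mef2a, Mef2c and Mef2d. With Flnc 4 rose and 2 fell (background 2.64% and 1.49%), with Xirp1 3 rose and 1 fell (2.0% and 1.15%), and with Xirp2 3 rose (3.88%). These counts include Mef2d with Flnc, Rcan1 with Xirp1 and Mef2a with Xirp2. With Csrp3, Ankrd2 and Actn2 2 rose each, beside 2.21%, 2.23% and 5.08% of all genes. With Actn3 1 rose and 3 fell (7.97% and 7.78%) and with Acta1 1 rose and 2 fell (7.29% and 7.27%), counts near the background. With Actc1 1 fell (0.759%), and none was called with Ankrd1. Abra, an actin-binding activator of MRTF and SRF signalling also known as STARS, followed Xirp1 (r = 0.738, rho = 0.723, 0.615 to 0.835 within blocks, adjusted p = 5.2e-14). Rcan1, a target and inhibitor of calcineurin, followed Xirp1 too (r = 0.644, rho = 0.570, adjusted p = 2.18e-09), and Mrtfa fell with it (r = -0.569, rho = -0.557, adjusted p = 1.07e-06). Vgll2, a muscle cofactor of TEAD, followed Actn2 (r = 0.686, rho = 0.670, adjusted p = 2.54e-11). With Actc1, Tead1 fell (r = -0.369, rho = -0.390, adjusted p = 0.0314).

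The genes most like each member over the 92 mice were taken from those with a mean of at least 1 and outside the members. All 40 such relations had limma adjusted p-values of at most 0.000583 and a permutation p of 1e-05 for r. The closest relation of all was that of Xirp1 with Atf3, a stress-induced transcription factor, at r = 0.881 and rho = 0.867 (adjusted p = 3.9e-28), with r = 0.868 without Geniad338 and Geniad187 and 0.781 to 0.951 within blocks. Csrp3, Ankrd2 and Actn2 shared partners: Hspb7 was among the 3 nearest of each, Myom3, the M-band protein of slow and intermediate fibres, had r = 0.776 with Csrp3 and 0.792 with Ankrd2, and Fhl1 had r = 0.759 with Actn2. Actn2 was also close to Mybpc1, the slow myosin-binding protein C (r = 0.762), and furthest in the negative direction from Myh4, the fast myosin heavy chain (r = -0.616). Actn3 went with Tpm1 (r = 0.754), Mybpc2, the fast myosin-binding protein C (r = 0.736), and Pygm, muscle glycogen phosphorylase (r = 0.731). Acta1 went with Myl1 (r = 0.635), Pvalb (r = 0.635) and Eef1a2 (r = 0.634), the first and second of which belong to the fast fibre list.

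Flnc had Tnfrsf12a, the receptor of the cytokine TWEAK, as its nearest gene (r = 0.697, rho = 0.649), then Mafk (r = 0.615) and Midn (r = 0.613). Ankrd1 had Mustn1, a small nuclear protein of regenerating muscle (r = 0.640, 0.511 without Geniad55 and Geniad260), Ncam1 (r = 0.609, 0.460 without them) and Klf5 (r = 0.583, 0.401 without them). Actc1 had Adora1, an adenosine receptor (r = 0.536), Sdc2, a syndecan (r = 0.520), and Mybph (r = 0.5), a myosin-binding protein, and its most negative gene was Smtnl2 (r = -0.543). Xirp2 had Rab10 (r = 0.591), Mtmr6 (r = 0.576) and Etf1 (r = 0.575), none of them in a list used here. The most negative genes of the others were Pgm1 for Csrp3 (r = -0.560), Tmem233 for Ankrd2 (r = -0.525), Clstn1 for Ankrd1 (r = -0.515), Secisbp2l for Acta1 (r = -0.549), Col8a1 for Actn3 (r = -0.587), Mrtfa for Xirp1, Serping1 for Xirp2 (r = -0.528) and Lrrc38 for Flnc (r = -0.601).

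**Figure D5:**
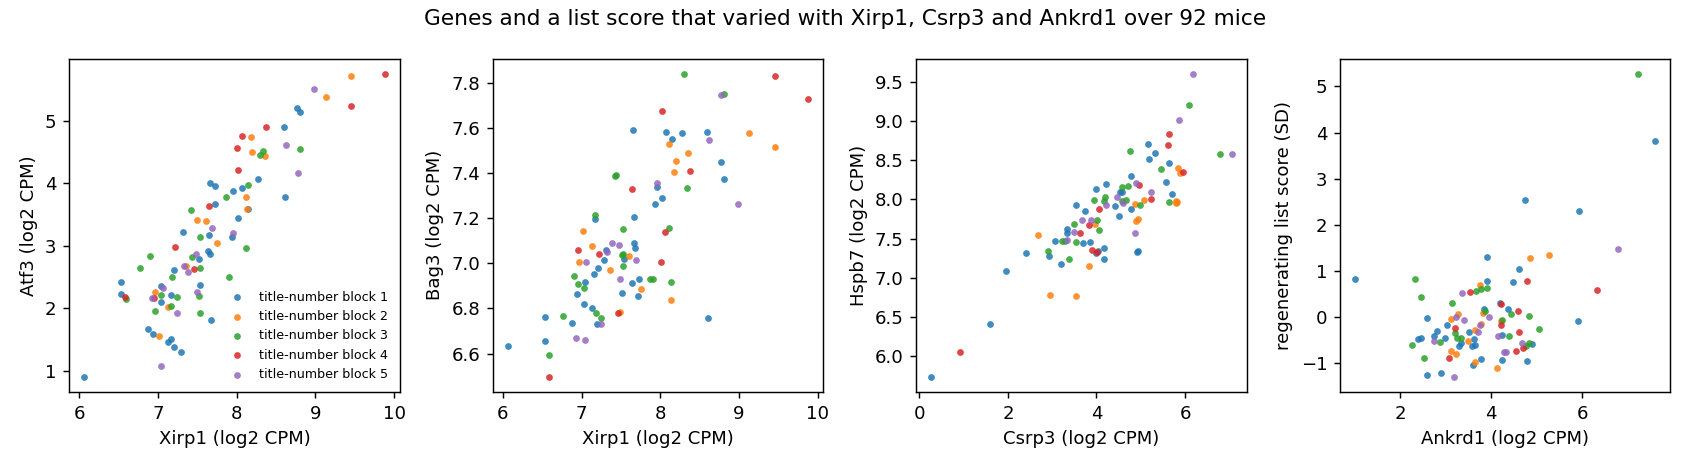
Levels of Atf3 and Bag3 against Xirp1, of Hspb7 against Csrp3 (all log2 CPM) and the regenerating or denervated fibre score (in SD) against Ankrd1, 1 point per mouse, coloured by title-number block. In the first 3 panels animals of all 5 blocks lie in 1 band. In the last, Geniad260 and Geniad55 stand above the rest in score and are furthest to the right, with Geniad452 near them on the Ankrd1 axis.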

How the data were processed

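RNA of quadriceps muscle from 92 mice was made into libraries with the KAPA mRNA HyperPrep kit, per the labels' protocols. The authors deposited 1 table of log2 values; the submitters' processing notes name kallisto 0.50.1, edgeR, bcl2fastq, MultiQC and build mm10, with no role given. That the log2 values are close to log2 CPM was read from the deposited values, whose linear sums have a median of 1006085; how they were normalised and filtered is not given in the sources used here. After 15 repeated lines were removed, 13441 genes remained.

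Limma 3.58.1 in R 4.3.3 fitted each gene on the standardised level of each member or list score, with its trend option, and p-values were adjusted by Benjamini-Hochberg across every gene fitted. Pearson's r and Spearman's rho had two-sided permutation tests of 100000 resamples. The spread trend is a lowess curve of SD on mean. Lengths and positions are from GENCODE M21 (GRCm38, the same assembly as mm10). The scripts were tested on simulated data.

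The members and lists were chosen with earlier results of these data known. Named were all members, the 10 largest called pairs, up to 4 called genes per structure list, and 3 positive and 1 negative partners per member. One gene that this rule names is not reported here. Myoz1, Myoz3, Neb and Tead1, and the 7 score relations beyond the 10 largest, were named after their values were seen. Alternatives were the block, fibre scores and 3 principal components as covariates, log2(value + 1), a mean of at least 1, ranks, the longest transcript as length, and the removal of animals.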

Additional observations from a re-analysis of the deposited data

How the results depend on the processing

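The count of called member pairs, 10, stayed between 8 and 11 under all 12 alternatives. The count of called relations with structure genes, 135 positive and 34 negative, fell to 111 in all with 3 principal components as covariates; the cause was not tested. The count of relations with marker scores, 17, fell to 10 without Geniad56, Geniad260 and Geniad366 together, removed after the data were seen, and was between 15 and 19 without Geniad55, Geniad56, Geniad260 or Geniad366 alone. The count of members that differed between blocks was 0 under all 7 alternatives (limma), as it was in the fit reported, where 2 members had an unadjusted p under 0.05. Slopes changed sign in 4 cases, with no call in the new direction: Actn3 on Acta1 with the fibre scores as covariates (-0.0114), and, with the principal components, Actn3 on the macrophage score (0.0093) and the fibroblast score (0.0386) and Vim on Actn3 (0.0141); the cause was not tested. No paired analysis was possible because there was 1 group. Depth is unknown, so the precision of the scarcest members rests on the spread between animals alone.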
